A study of Mus musculus with 18 samples.

Results

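The data cover the cell cycle and DNA replication genes of mouse L929 cells, a fibroblast line, in 6 groups of 3 cultures. Members were the genes that the deposited table annotates with the KEGG pathway of DNA replication (34 genes) or of the cell cycle (155 genes). The annotations shared 7 genes, so that 182 genes carried either. Of these, 8 stayed under 10 counts in at least 16 of 18 libraries (Ccna1, Ccnb3, Cdkn2a, Cdkn2b, Sfn, Smc1b, Tgfb2 and Wee2), and Cdkn1a, Mdm2 and Ssbp1 were left out by name. The remaining 171 members, among 14263 genes tested, comprised 33 replication genes and 138 other cell cycle genes, and all 171 passed the filter on low counts. The limit asks for 3 libraries at or above 10 counts, and the genes nearest to it were Sfn on the outside, with 3 libraries at 6 counts or more, and Cdkn1c on the inside, with 3 libraries at 32 counts or more.

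All samples, called cultures here, were wild type L929 cells, and the labels do not say whether the 3 samples of a group came from separate experiments, so that p-values measure the spread between these samples only. Mock cultures received DMSO, and whether they also received the transfection lipid is not stated. The AOA group received aminooxyacetic acid, an inhibitor of aminotransferases, at 0.5 mM with a pretreatment of 1 h, and the AOA+Asp group received 20 mM aspartate in addition. The HT-DNA group was transfected, with a cationic lipid, with herring testis DNA, a double-stranded DNA that the cytosolic sensor cGAS recognises, at 0.5 μg/ml for 6 h. The HT-DNA+AOA and HT-DNA+AOA+Asp groups combined these treatments. No group received aspartate without AOA, so the part of aspartate could be measured only beside AOA, and all groups came from 1 cell line.

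DNA replication begins at origins that are marked by the origin recognition complex and licensed in G1 by CDC6 and CDT1, which load the MCM helicase. In S phase the helicase unwinds the DNA, RPA coats the exposed strands, primase and DNA polymerase alpha start each stretch, and polymerases delta and epsilon extend it on the PCNA ring, which is set on DNA by the RFC clamp loader. Passage through the cycle is driven by cyclins and their kinases, restrained by CDK inhibitors and by RB, which holds E2F transcription factors inactive, and watched by the damage and spindle checkpoints. In bulk RNA from growing cultures, a lower level of a phase-specific transcript may mean fewer cells in that phase or less transcript per cell, and these cannot be told apart here.

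Libraries held 17901605 to 24057343 counts, with a median of 20385838, and the level of a gene is given in CPM, its count scaled to a common library total with TMM factors. Log2 fold changes compare 3 cultures with 3, and their standard error comes from 1 fit of all 18 libraries. A member was called where the Benjamini-Hochberg adjusted p-value of edgeR's quasi-likelihood test over all 14263 genes was under 0.05. The fibroblast label was checked first. Vim ran from 2300 to 2966 CPM over the 18 libraries and Col1a1 from 117 to 159 CPM, but Lum and Dcn, which mark many fibroblasts, reached at most 0.0581 CPM. Of the macrophage markers, Cd68 was present at up to 155 CPM, Csf1r and Itgam stayed under 0.5 CPM, and Ptprc and Adgre1 had no count, while no epithelial or endothelial marker passed 0.6 CPM. The HT-DNA+AOA libraries differed most from each other, with a chi-square per degree of freedom of 17.3 to 63.6 between pairs against 2.74 to 12.6 in the other groups. The standard errors share 1 estimate of spread per gene over all groups, so they do not follow this difference between groups. Of the 171 members, 26 shared over 15% of their 31-base words with transcripts of other genes, so that the counting could have split their reads. Among those named here, this share was 79.6% for Fen1, 33.4% for Mcm7, 27.8% for Ccnb1, 26.7% for Cdc20, 23.3% for Pcna, 23% for Pold4, 22.3% for Ccnd1, 19.5% for Cdk4, 18.7% for Plk1, 17% for Gadd45a, 15.6% for Ccne2, 27.2% for Cdkn1c, 18.6% for Rbl2 and 19% for Rnaseh2a.

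Promoters were read for the members because many of them are textbook targets of E2F factors or of the complexes that bind the CHR element and the CCAAT box. RefSeq promoters (250 bases before to 50 bases after a start, GRCm38.p6) were found by symbol for 134 of the 171 members. An E2F motif (TTTCCCGC, TTTGGCGC, TTTCGCGC or TTTGCCGC, either strand) lay in 40.7% of the 27 replication genes with a promoter and in 16.8% of the 107 other cell cycle genes, against 2.6% of all 27025 genes in the promoter table and 4.75% of the 9840 tested genes found there. A CHR element (TTTGAA or TTCGAA, either strand) lay in 18.5% of the replication genes, 31.8% of the other cell cycle genes and 21.7% of all genes (17% of those tested), and a CCAAT box (CCAAT, either strand) in 59.3%, 53.3% and 41.1% (43.7% of those tested). The E2F motif was most frequent in the MCM helicase genes (4 of 5 with a promoter), and the CHR element in the spindle checkpoint genes (7 of 11). None of these motifs contains another, and a match describes the letters of the promoter, not a bound site. The promoters of 8 members on which the results below turn are printed 5′ to 3′ with every match of the 3 motifs in capitals. As printed, E2f2, Cdc6, Cdk2 and Chek2 hold an E2F match, Ttk and Plk1 a CHR match, Cdk1 both, and Gadd45a neither. E2f2 has 2 starts, of which the printed one holds no CHR match and the other does.
E2f2 (chr4:136172024-136172323, plus strand): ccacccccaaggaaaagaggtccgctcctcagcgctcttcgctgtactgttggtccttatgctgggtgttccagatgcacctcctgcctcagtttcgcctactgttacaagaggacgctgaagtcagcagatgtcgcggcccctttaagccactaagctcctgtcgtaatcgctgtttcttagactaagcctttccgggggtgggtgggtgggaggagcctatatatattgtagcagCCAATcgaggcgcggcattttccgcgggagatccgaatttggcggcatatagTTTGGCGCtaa
Cdc6 (chr11:98907901-98908200, plus strand): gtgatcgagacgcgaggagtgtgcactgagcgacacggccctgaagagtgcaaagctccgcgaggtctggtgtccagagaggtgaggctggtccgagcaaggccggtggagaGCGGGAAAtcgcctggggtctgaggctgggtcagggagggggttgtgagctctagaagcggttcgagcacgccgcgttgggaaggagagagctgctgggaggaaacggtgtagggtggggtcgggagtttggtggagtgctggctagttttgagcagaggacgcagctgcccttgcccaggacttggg
Cdk2 (chr10:128705002-128705301, minus strand): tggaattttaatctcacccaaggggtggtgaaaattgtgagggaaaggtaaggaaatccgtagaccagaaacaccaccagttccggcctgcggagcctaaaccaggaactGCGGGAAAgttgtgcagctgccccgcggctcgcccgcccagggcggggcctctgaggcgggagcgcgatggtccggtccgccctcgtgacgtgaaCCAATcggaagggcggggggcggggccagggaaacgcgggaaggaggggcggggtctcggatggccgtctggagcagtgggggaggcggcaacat
Chek2 (chr5:110839733-110840032, plus strand): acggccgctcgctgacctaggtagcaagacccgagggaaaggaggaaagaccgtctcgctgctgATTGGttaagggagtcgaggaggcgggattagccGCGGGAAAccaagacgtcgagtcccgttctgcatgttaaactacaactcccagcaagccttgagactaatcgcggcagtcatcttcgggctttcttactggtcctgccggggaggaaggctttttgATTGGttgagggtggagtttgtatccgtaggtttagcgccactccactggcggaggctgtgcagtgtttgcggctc
Ttk (chr9:83834439-83834738, plus strand): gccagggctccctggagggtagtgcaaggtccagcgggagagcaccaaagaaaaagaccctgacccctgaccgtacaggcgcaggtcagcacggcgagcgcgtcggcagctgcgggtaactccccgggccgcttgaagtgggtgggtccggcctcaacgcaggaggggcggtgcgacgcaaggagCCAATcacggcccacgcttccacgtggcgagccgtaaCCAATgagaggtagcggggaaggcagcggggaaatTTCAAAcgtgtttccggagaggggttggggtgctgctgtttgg
Plk1 (chr7:122159185-122159484, plus strand): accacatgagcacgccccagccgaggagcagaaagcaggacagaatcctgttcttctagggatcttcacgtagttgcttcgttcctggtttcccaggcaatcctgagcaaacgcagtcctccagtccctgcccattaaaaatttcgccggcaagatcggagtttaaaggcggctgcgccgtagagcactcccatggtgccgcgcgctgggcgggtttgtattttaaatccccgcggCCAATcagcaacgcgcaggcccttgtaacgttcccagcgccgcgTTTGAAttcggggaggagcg
Cdk1 (chr10:69352863-69353162, minus strand): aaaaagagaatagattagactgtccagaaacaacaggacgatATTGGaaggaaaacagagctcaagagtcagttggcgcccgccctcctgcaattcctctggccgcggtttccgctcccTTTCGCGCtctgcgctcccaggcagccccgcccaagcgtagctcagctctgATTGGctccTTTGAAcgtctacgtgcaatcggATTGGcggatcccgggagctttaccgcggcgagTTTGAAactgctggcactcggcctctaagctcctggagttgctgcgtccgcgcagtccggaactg
Gadd45a (chr6:67037358-67037657, minus strand): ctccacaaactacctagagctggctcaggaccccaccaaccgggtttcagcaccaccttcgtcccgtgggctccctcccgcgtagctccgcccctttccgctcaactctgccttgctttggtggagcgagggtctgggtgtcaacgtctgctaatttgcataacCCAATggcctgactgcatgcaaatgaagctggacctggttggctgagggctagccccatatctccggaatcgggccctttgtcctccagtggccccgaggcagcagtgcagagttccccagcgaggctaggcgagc

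The comparison of AOA with Mock asks how the inhibitor alone moves these genes. Replication and cell cycle genes mostly fell: 13 of 33 replication genes were lower and 4 higher, and 64 of 138 other cell cycle genes were lower and 12 higher. Over all genes tested, 23.3% were lower and 22.4% higher, so both lists were called lower more often than the whole table (39.4% and 46.4%) and higher less often (12.1% and 8.7%). The median log2 fold change was -0.16 for the replication genes and -0.21 for the other cell cycle genes, against 0.02 for all genes. These are small shifts for most members. The larger falls included those of the activator E2f2, the phosphatase Cdc14b, the S phase cyclin Ccne2, the spindle kinase Ttk, the checkpoint kinase Chek2 and the cohesin acetyltransferase Esco1, and the larger rises those of the stress gene Gadd45a and the growth regulator gene Myc.

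**Figure D1:**
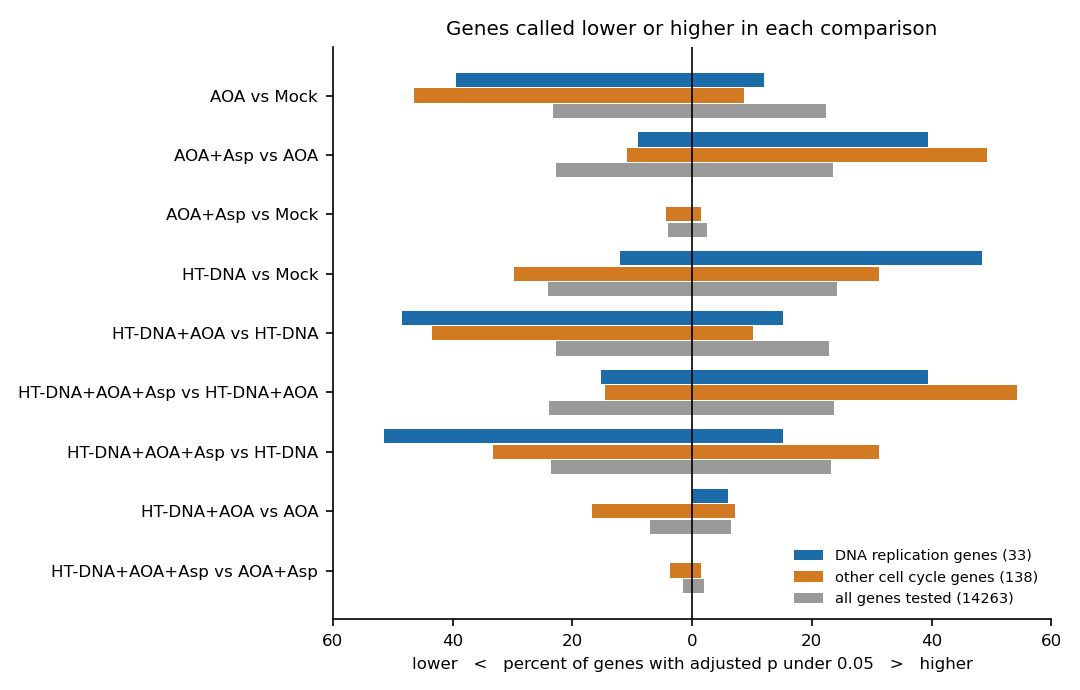
Percent of genes called lower (left) or higher (right) at an adjusted p under 0.05 in each of 9 comparisons, for the 33 replication genes, the 138 other cell cycle genes and all 14263 genes tested. The bars of both lists lean to the left with AOA, to the right when aspartate is added to AOA, and shrink to 2 higher and 6 lower members in AOA+Asp against Mock.

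Of the 6 MCM genes, 5 fell with AOA (all genes 23.3% lower), each by a small step. The MCM proteins form the ring helicase of the replication fork. Mcm5 measured 189, 193 and 190 CPM in Mock and 148, 165 and 154 CPM in AOA (log2 fold change -0.29 ± 0.09, adjusted p = 0.0105), and Mcm2, Mcm4, Mcm6 and Mcm7 had log2 fold changes of -0.23, -0.21, -0.27 and -0.16. The call of Mcm2 was lost without Mock replicate 1, 2 or 3 or AOA replicate 1 or 3 (adjusted p = 0.0622 to 0.132). The call of Mcm4 was lost without Mock replicate 1, 2 or 3 or AOA replicate 2 or 3 (adjusted p = 0.0832 to 0.152), and the call of Mcm7 without any 1 of the 6 libraries (adjusted p = 0.0502 to 0.128). With no filter on low counts, Mcm4 and Mcm7 missed the threshold as well (adjusted p = 0.0807 and 0.228). Mcm3 measured 192, 193 and 181 CPM in Mock and 198, 191 and 195 CPM in AOA and was not called. The clamp gene Pcna fell most of all replication genes, from 241, 250 and 252 CPM to 151, 150 and 174 CPM (log2 fold change -0.65 ± 0.09, adjusted p = 7.58e-06), with no overlap between the groups. None of the 5 RFC clamp loader genes was called. Rpa2, a subunit of the single-strand binding protein, fell from 63.1, 64.1 and 62.2 CPM to 45.8, 45 and 44.6 CPM (log2 fold change -0.48 ± 0.08, adjusted p = 0.000113).

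The polymerase genes moved in both directions. Lower were Pola2, the second subunit of polymerase alpha (-0.58 ± 0.07), the primase subunit Prim2 (-0.52 ± 0.07), Pold3 of polymerase delta (-0.52 ± 0.08) and Pole2 of polymerase epsilon (-0.57 ± 0.10), as log2 fold changes. The catalytic subunits of delta, epsilon and primase were not called, and their groups overlapped. Pold1 measured 49, 48.7 and 46.8 CPM in Mock and 49.7, 50.2 and 46.3 CPM in AOA. Pole measured 53.9, 53.9 and 46.3 CPM in Mock and 59.8, 48 and 43.7 CPM in AOA. Prim1 measured 51.8, 54.3 and 59 CPM in Mock and 53.8, 51.9 and 54.7 CPM in AOA. Higher were the delta subunits Pold4, from 18.9, 18 and 19.7 CPM to 29.4, 34.3 and 37.3 CPM (log2 fold change 0.83 ± 0.13, adjusted p = 3.45e-05), and Pold2 (0.49 ± 0.11). The Pold4 values of the groups did not overlap. The epsilon subunit Pole3 was called higher too. Of the genes that finish the lagging strand, the ligase Lig1 fell (-0.26 ± 0.06) and Rnaseh1, which cuts RNA paired with DNA, rose from 16.8, 17.7 and 16.2 CPM to 24.9, 22.8 and 23.8 CPM (log2 fold change 0.49 ± 0.10, adjusted p = 0.0004).

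**Figure D2:**
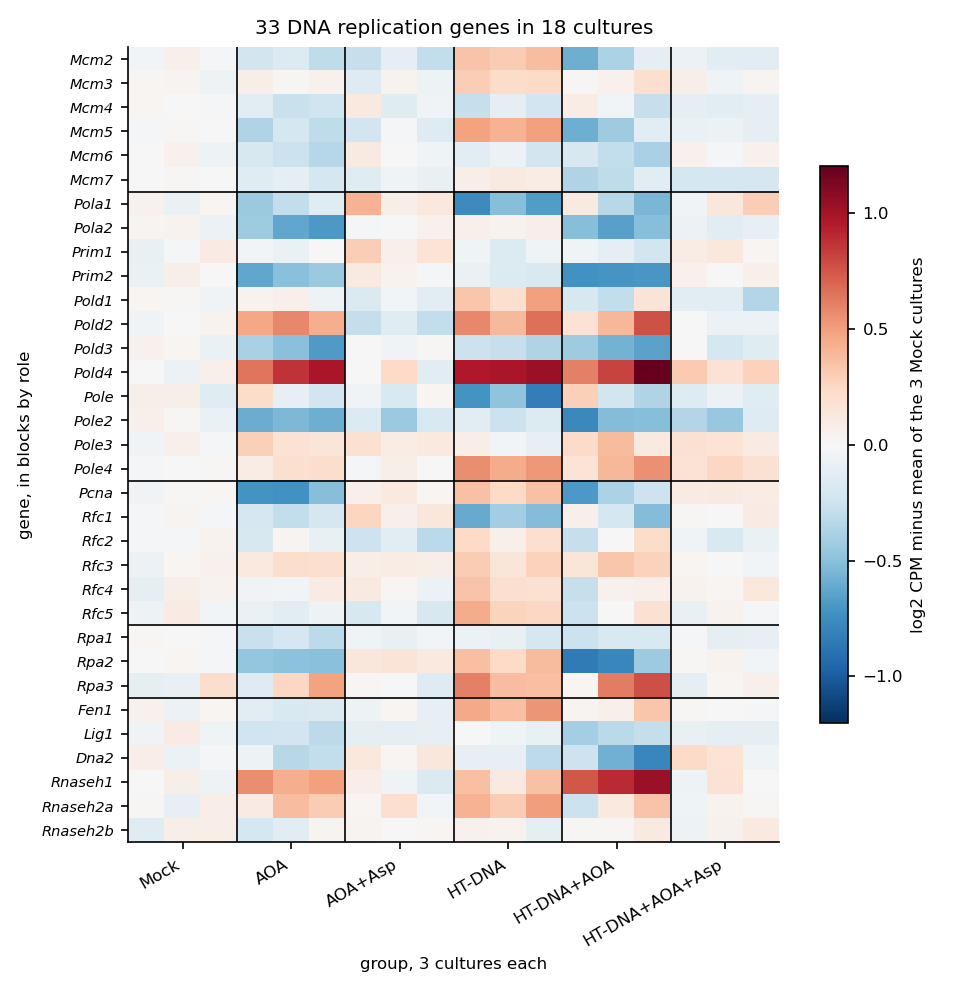
Heatmap of the 33 replication genes (rows, in blocks by role) in 18 cultures (columns, 3 per group), coloured by log2 CPM minus the mean of the 3 Mock cultures. Pcna, Pola2, Prim2, Pold3, Pole2 and Rpa2 are blue in AOA and near white in AOA+Asp, Pold4 and Rnaseh1 are red in AOA, and the 3 HT-DNA+AOA columns differ from each other (Pcna 154, 190 and 208 CPM).

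Among the other cell cycle genes, the RB, E2F and G1 genes held several of the larger falls. E2f2, an activating E2F factor that drives genes of S phase, went from 30.2, 29.7 and 29.2 CPM in Mock to 9.68, 11.5 and 10.1 CPM in AOA, 2.83-fold lower (log2 fold change -1.50 ± 0.10, adjusted p = 7.5e-10). E2f1 (-0.37) and E2f3 (-0.46) fell less, the repressor E2f4 rose (0.34), and the pocket protein genes Rb1 and Rbl1 fell by 0.48 and 0.49 on the log2 scale. In all, 7 of 10 RB and E2F genes were lower (all genes 23.3%). Ccne2, a cyclin that activates CDK2 at the entry to S phase, fell from 41.6, 44.6 and 47.5 CPM to 20, 22 and 24.9 CPM (2-fold lower, SE 0.09 on the log2 scale, adjusted p = 8.63e-08). Its kinase Cdk2 fell from 79.6, 73.4 and 74 CPM to 49.5, 42.1 and 48.6 CPM (log2 fold change -0.70 ± 0.07, adjusted p = 2.67e-07). Cyclins Ccne1, Ccnd2 and Ccnd3 fell too (-0.44, -0.39 and -0.51). Cdk4, the kinase partner of D-type cyclins, was the exception and rose (0.45 ± 0.09), and Ccnd1 was not called, at 606, 624 and 604 CPM in Mock and 627, 648 and 631 CPM in AOA.

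Of the 4 CDK inhibitor genes, 2 fell and 0 rose, beside 23.3% lower and 22.4% higher over all genes tested. The INK4 inhibitors of CDK4 and CDK6, Cdkn2c (-0.77 ± 0.09) and Cdkn2d (-0.85 ± 0.13), were lower, while Cdkn1b measured 29.3, 26.4 and 27.1 CPM in Mock and 25.7, 21.9 and 21.5 CPM in AOA and was not called. Of 13 origin genes, 6 were lower and 2 higher. The licensing factor Cdt1 did not fall. It was called lower in AOA+Asp than in AOA, and not called in AOA+Asp against Mock (log2 fold change -0.07 ± 0.09, adjusted p = 0.693). The licensing factor Cdc6 fell from 44.9, 48.8 and 42.5 CPM to 27.6, 26.9 and 27.2 CPM (log2 fold change -0.74 ± 0.08, adjusted p = 4.68e-07), and so did the origin subunit Orc1 (-0.69 ± 0.08), the helicase activator Cdc45 (-0.41 ± 0.08) and Dbf4 (-0.38 ± 0.08), which activates the origin-firing kinase CDC7.

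The mitotic genes named here did not all move alike. The genes of the central kinase of mitosis and its cyclins were not called, apart from a small fall of Ccnb1 (-0.27 ± 0.06, adjusted p = 0.00141). Cdk1 measured 124, 124 and 133 CPM in Mock and 118, 121 and 136 CPM in AOA. Ccna2, the cyclin of S phase and early mitosis, measured 187, 199 and 192 CPM in Mock and 211, 192 and 206 CPM in AOA. Cdc20, which activates the anaphase-promoting complex, measured 200, 212 and 196 CPM in Mock and 202, 193 and 200 CPM in AOA. For these 3 genes the groups overlapped. Several regulators of the mitotic kinase fell. Cdc25b, a phosphatase that activates CDKs, fell from 129, 133 and 129 CPM to 73.1, 77.5 and 72.9 CPM (log2 fold change -0.81 ± 0.07, adjusted p = 8.63e-08). Plk1, a mitotic kinase, fell from 139, 141 and 136 CPM to 95.1, 95.4 and 88.5 CPM (log2 fold change -0.57 ± 0.08, adjusted p = 1.01e-05). Cdc14b, a phosphatase of the cell cycle, fell from 11.7, 10.9 and 10 CPM to 4.81, 3.48 and 3.95 CPM (log2 fold change -1.42 ± 0.17, adjusted p = 2.85e-06).

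The spindle checkpoint, which delays anaphase until every chromosome is attached, was the role with the largest share lower (9 of 11 genes) apart from the MCM genes. Its kinase Ttk fell from 32, 35.1 and 32.7 CPM to 15, 14.5 and 15.3 CPM (log2 fold change -1.16 ± 0.13, adjusted p = 8.57e-07). Its kinetochore scaffold Knl1 fell from 63, 66.5 and 74.3 CPM to 32.6, 36.6 and 39.8 CPM (log2 fold change -0.90 ± 0.13, adjusted p = 2.07e-05). Of 19 genes of cohesin, the ring that holds sister chromatids together, and its regulators, 12 were lower and 0 higher. The cohesin acetyltransferases Esco1 (-1.06 ± 0.12) and Esco2 (-0.95 ± 0.13) fell most. Of 21 genes of the ubiquitin ligases APC/C and SCF, 3 were lower and 1 higher (all genes 23.3% lower and 22.4% higher).

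Checkpoint genes held both the largest rise and one of the largest falls. Gadd45a, a stress gene whose product binds PCNA and CDK1, rose from 21.7, 21.8 and 25.9 CPM in Mock to 176, 180 and 176 CPM in AOA, 7.69-fold (log2 fold change 2.94 ± 0.07, adjusted p = 1.24e-15). Its relative Gadd45g measured 7.96, 7.98 and 7.93 CPM in Mock and 11.2, 7.99 and 9.42 CPM in AOA and was not called. Chek2, a kinase that relays double-strand breaks, fell from 20.7, 21.3 and 17.3 CPM to 9.52, 9.06 and 9.42 CPM (log2 fold change -1.08 ± 0.11, adjusted p = 3.02e-07), and the replication checkpoint kinase Chek1 by less (-0.53 ± 0.09). The upstream kinase gene Atr measured 48.7, 47.2 and 44.3 CPM in Mock and 50.6, 50 and 55.5 CPM in AOA and was not called. Myc, a transcription factor of growth, rose from 139, 144 and 135 CPM to 575, 521 and 516 CPM, 3.86-fold (log2 fold change 1.95 ± 0.07, adjusted p = 1.06e-13). Smad3, which carries TGF-beta signals, rose by 0.64 ± 0.10 and Ywhag, a phosphoprotein adaptor, by 0.74 ± 0.06 on the log2 scale.

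**Figure D3:**
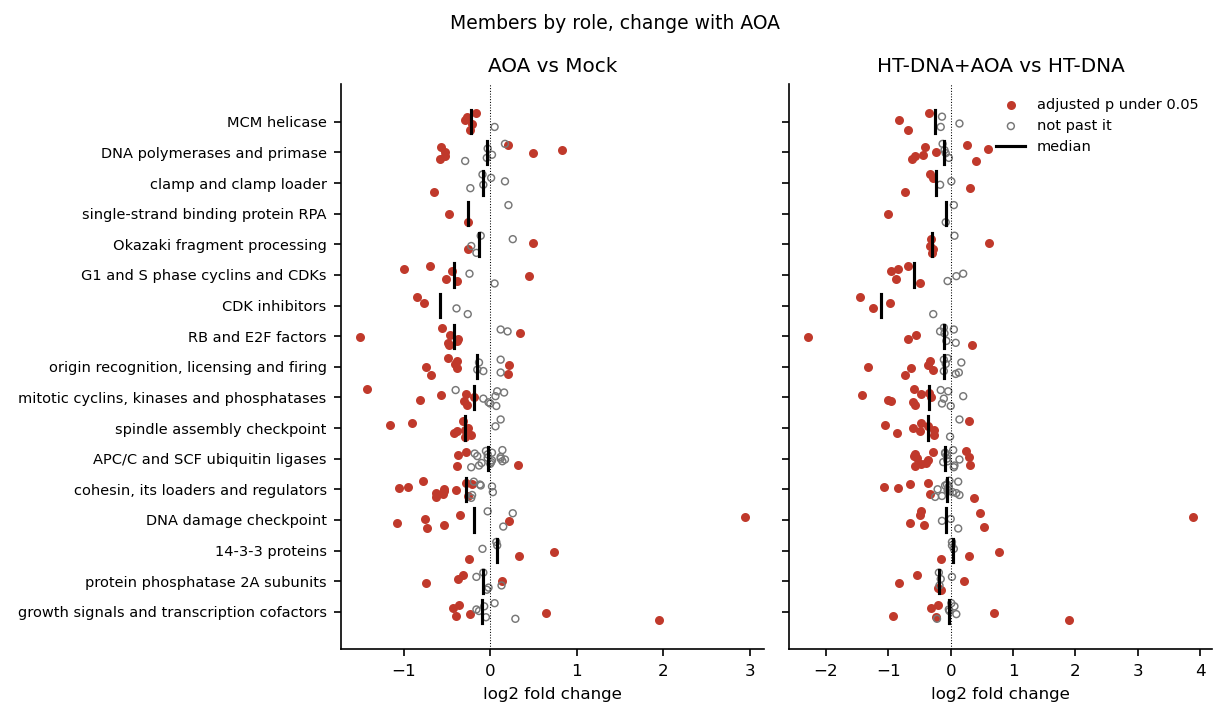
Log2 fold change of each of the 171 members with AOA, without HT-DNA (left) and with it (right), in rows by role. Filled points passed an adjusted p of 0.05, open points did not, and bars are medians; most medians lie left of 0, and Gadd45a (2.94 and 3.88) and Myc (1.95 and 1.89) lie far to the right.

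Promoter letters were set beside these calls as a description. Of 29 members with an E2F match, 15 were lower with AOA (51.7%). Of 105 members with a promoter and no E2F match, 44 were (41.9%), beside 23.3% of all genes tested. The share lower was 46.2% with and 43.2% without a CHR element, and 49.3% with and 37.7% without a CCAAT box. Of the genes printed above with an E2F match, E2f2, Cdc6, Cdk2 and Chek2 fell and Cdk1 was not called. These genes were printed because the results turn on them, so their calls do not measure a link with the motif. The called members also differed in transcript length and base composition: members lower with AOA had a median length of 3069 bases (replication) and 3776 bases (other), and those higher 1796 and 2986 bases. Their GC content was 48.5% and 46.6% for the lower and 53.2% and 53.1% for the higher members. Over all genes tested, the medians were 3944 bases and 49.6% for the lower, and 2738 bases and 50.3% for the higher. The 33 replication genes together also had a median length of 3069 bases, and 4 of them were higher. In a fit corrected for GC content and length, 13 replication genes were lower and 5 higher, and 64 other cell cycle genes lower and 18 higher. With library totals in place of TMM, which moved the median of all genes by -0.13 on the log2 scale, the falls became more frequent (19 and 79 lower).

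Aspartate was added to AOA to ask whether it moves these genes back. With aspartate, 13 replication genes were higher than in AOA alone and 3 lower (all genes 23.5% and 22.8%), and 68 other cell cycle genes were higher and 15 lower. Against Mock, the cultures with AOA and aspartate had 0 replication genes higher and 0 lower, with 5 of 33 at an unadjusted p under 0.05 and 0 higher and 0 lower by DESeq2. Of the other cell cycle genes, 2 were higher and 6 lower than in Mock (all genes 2.52% and 3.95%). This split was 1 and 11 with library totals, 3 and 5 with RLE size factors and 8 and 11 with GC content and length corrected, and the total of 8 became 4 without any 1 of the Mock replicates and 3 without AOA+Asp replicate 1. DESeq2 called 8 other cell cycle genes higher and 8 lower. In a fit of the AOA+Asp and Mock libraries alone, 22 other cell cycle genes were higher and 12 lower. That fit called 0 replication genes higher and 4 lower. These comparisons share the AOA or the Mock cultures with the one before, so their values are set side by side and not counted against each other.

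Most of the large changes were smaller or gone in the presence of aspartate. E2f2 measured 22.4, 25 and 25.8 CPM in AOA+Asp (log2 fold change 1.22 ± 0.10, adjusted p = 1.59e-08 against AOA), still below every Mock culture (29.7 ± 0.514 CPM, mean ± SD, n = 3), a difference that edgeR's test did not call (log2 fold change -0.28 ± 0.09, adjusted p = 0.0635). Pcna measured 259, 268 and 252 CPM (log2 fold change 0.72 ± 0.09, adjusted p = 2.81e-06), beside 241, 250 and 252 CPM in Mock. Ccne2 measured 45.7, 45.1 and 38.3 CPM (log2 fold change 0.95 ± 0.09, adjusted p = 2.18e-07) and Ttk 40.2, 34.3 and 35.3 CPM (log2 fold change 1.29 ± 0.13, adjusted p = 2.77e-07). None of these 4 genes was called against Mock. Myc fell back to 149, 161 and 143 CPM (log2 fold change -1.83 ± 0.07, adjusted p = 4.55e-13), and Pold4 to 18.8, 22.2 and 17.2 CPM (log2 fold change -0.80 ± 0.13, adjusted p = 5.89e-05). Of 19 cohesin genes, 16 were higher with aspartate than without and 0 lower, and of 11 spindle checkpoint genes 9 and 0 (all genes 23.5% and 22.8%).

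A few members stayed off their Mock level. The 2 members higher in AOA+Asp than in Mock were Gadd45a, at 47.6, 47.3 and 46.3 CPM (log2 fold change 1.03 ± 0.07, adjusted p = 2.57e-08), and Tfdp2, a partner of E2F factors (log2 fold change 0.37 ± 0.09, adjusted p = 0.0224). The 6 that were lower included 4 of the 8 genes of G1 and S phase cyclins and kinases: Ccnd3, at 55.4, 66.4 and 60.2 CPM against 90.7, 91.4 and 88 CPM in Mock (log2 fold change -0.57 ± 0.11, adjusted p = 0.00245), Ccne1 (-0.34 ± 0.10), Ccnd1 (-0.33 ± 0.07) and Cdk2 (-0.26 ± 0.07). The remaining genes were the cytokine gene Tgfb1, at 37.4, 47 and 40.2 CPM against 67.2, 63.9 and 64.9 CPM (log2 fold change -0.65 ± 0.10, adjusted p = 0.000303), and Cdc25b (-0.25 ± 0.07). Tgfb1 was not called with AOA alone (68.2, 58.6 and 62 CPM), and Ccnd1 was not either. Because no culture received aspartate alone, a change made by aspartate itself and one that AOA leaves cannot be told apart. The call of Tfdp2 was lost without Mock replicate 1, 2 or 3 or AOA+Asp replicate 1 or 3 (adjusted p = 0.0632 to 0.142), and the call of Ccne1 was lost without Mock replicate 1, 2 or 3 or AOA+Asp replicate 1 or 3 (adjusted p = 0.0966 to 0.246). The call of Ccnd1 was lost without AOA+Asp replicate 1 or 3 (adjusted p = 0.0538 to 0.0599) and that of Cdk2 without Mock replicate 1, 2 or 3 or AOA+Asp replicate 1 or 2 (adjusted p = 0.0575 to 0.147). The call of Cdc25b was lost without Mock replicate 1, 2 or 3 or AOA+Asp replicate 1 or 2 (adjusted p = 0.091 to 0.231). Other settings also ended the calls of Tfdp2 (library totals, adjusted p = 0.0639), Ccne1 (RLE size factors, adjusted p = 0.0503), Cdk2 and Cdc25b (no filter on low counts, adjusted p = 0.102 and 0.0953). The calls of Gadd45a, Ccnd3 and Tgfb1 held without each library.

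HT-DNA without AOA asks how transfected DNA moves these genes. Replication genes rose more often than they fell (16 higher and 4 lower of 33), and the other cell cycle genes split evenly (43 higher and 41 lower of 138), with 24.2% of all genes higher and 24% lower. The split depends on the scaling: with library totals, which moved the median of all genes by -0.11 on the log2 scale, 11 replication genes were higher and 11 lower, and 28 other cell cycle genes were higher and 54 lower. The rises included those of the small subunit Pold4, the stress genes Gadd45g and Gadd45b, and Zbtb17, a factor that binds MYC. Others were the cyclins Ccne1, Ccnd1 and Ccne2 and the mitotic genes Cdk1, Plk1 and Cdc20. However, of 25 G2 and M phase genes that KEGG does not list in these pathways, 5 were higher and 12 lower (median -0.24). Falls included those of the kinase Prkdc, Cdc14b, Rb1 and several cohesin genes.

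Of the replication genes, Pold4 rose most, from 18.9, 18 and 19.7 CPM in Mock to 36.7, 37.2 and 38.6 CPM with HT-DNA (log2 fold change 0.99 ± 0.13, adjusted p = 1.21e-05). Mcm5 rose to 267, 254 and 269 CPM (log2 fold change 0.47 ± 0.09, adjusted p = 0.000359) and Pcna to 316, 293 and 316 CPM (log2 fold change 0.32 ± 0.09, adjusted p = 0.00565), both of which were lower with AOA. Fen1, the flap nuclease of the lagging strand, rose from 84.6, 78 and 83.1 CPM to 112, 105 and 118 CPM (log2 fold change 0.45 ± 0.07, adjusted p = 0.000128). Pole, the catalytic subunit of polymerase epsilon, fell from 53.9, 53.9 and 46.3 CPM to 31.2, 36.6 and 28.8 CPM (log2 fold change -0.67 ± 0.14, adjusted p = 0.00092) and Pola1, that of polymerase alpha, from 43, 39.3 and 42.3 CPM to 24.5, 29.2 and 26.1 CPM (log2 fold change -0.64 ± 0.14, adjusted p = 0.00118). The large clamp loader subunit Rfc1 fell (-0.51 ± 0.10), and 3 of the 4 smaller ones were higher.

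Several cyclin genes of G1 and S phase rose with HT-DNA, while Ccnd2 was called lower. The Ccnd2 call ended with GC content and length corrected (log2 fold change 0.05, adjusted p = 0.274). Ccnd1, a D-type cyclin that activates CDK4 and CDK6 in G1, rose from 606, 624 and 604 CPM to 974, 958 and 990 CPM (log2 fold change 0.67 ± 0.07, adjusted p = 2.36e-06). Ccne1 rose from 51.2, 51.9 and 50 CPM to 79.8, 81.6 and 90.6 CPM (log2 fold change 0.72 ± 0.10, adjusted p = 2.28e-05) and Ccne2 to 72.3, 66.2 and 69.3 CPM (log2 fold change 0.64 ± 0.09, adjusted p = 2.47e-05). Cdk1 rose from 124, 124 and 133 CPM to 218, 191 and 183 CPM (log2 fold change 0.63 ± 0.10, adjusted p = 5.9e-05), with every HT-DNA culture above every Mock culture. Plk1 rose to 200, 189 and 211 CPM (log2 fold change 0.53 ± 0.08, adjusted p = 4.7e-05) and Cdc20 to 286, 277 and 303 CPM (log2 fold change 0.51 ± 0.08, adjusted p = 6.03e-05). Ccna2 was not called, at 188, 212 and 201 CPM. Gadd45a fell to 15.1, 14.7 and 14.2 CPM (log2 fold change -0.66 ± 0.08, adjusted p = 4.84e-06), the opposite of its change with AOA. Its relatives rose, Gadd45g from 7.96, 7.98 and 7.93 CPM to 14.5, 13.8 and 14.8 CPM (log2 fold change 0.85 ± 0.11, adjusted p = 1.22e-05) and Gadd45b from 13.7, 16.2 and 16.6 CPM to 25.7, 25.4 and 29.6 CPM (log2 fold change 0.80 ± 0.12, adjusted p = 4.48e-05).

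The genes that fell with HT-DNA included kinase, pocket protein and cohesin genes. Prkdc, the catalytic subunit of DNA-dependent protein kinase, fell from 15.2, 16.4 and 15.2 CPM to 6.27, 9.33 and 7.38 CPM (log2 fold change -1.02 ± 0.15, adjusted p = 5.9e-05). Rb1 fell from 23.7, 24.6 and 24 CPM to 11.9, 13.5 and 12.6 CPM (log2 fold change -0.92 ± 0.12, adjusted p = 1.04e-05). The cohesin loader Nipbl fell from 174, 177 and 184 CPM to 85.9, 112 and 97.6 CPM (log2 fold change -0.86 ± 0.16, adjusted p = 0.000358). Of 19 cohesin genes, 11 were lower and 1 higher. The 4 CDK inhibitors held 1 rise, that of Cdkn2d, which did not pass with GC content and length corrected (adjusted p = 0.97), and 1 fall, that of Cdkn1b, the inhibitor p27, from 29.3, 26.4 and 27.1 CPM to 16.7, 18 and 15.8 CPM (log2 fold change -0.72 ± 0.11, adjusted p = 7.64e-05). The RB and E2F genes were 3 higher, E2f1 among them (0.36 ± 0.08), and 4 lower. The ubiquitin ligase genes were 8 higher and 5 lower of 21, and E2f2 was not called, at 28.6, 25 and 28.3 CPM. Over all genes tested, 24.2% were higher and 24% lower with HT-DNA. Members lower with HT-DNA had median transcript lengths of 5048 bases (replication) and 4851 bases (other cell cycle) and a GC content of 47.5% and 45.1%, against 2172 and 2669 bases and 51.6% and 50.9% for those higher. The same held over all genes, with medians of 4560 bases for the lower and 2342 bases for the higher. In a fit corrected for GC content and length, 16 replication genes were higher and 5 lower, and 51 other cell cycle genes higher and 37 lower.

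**Figure D4:**
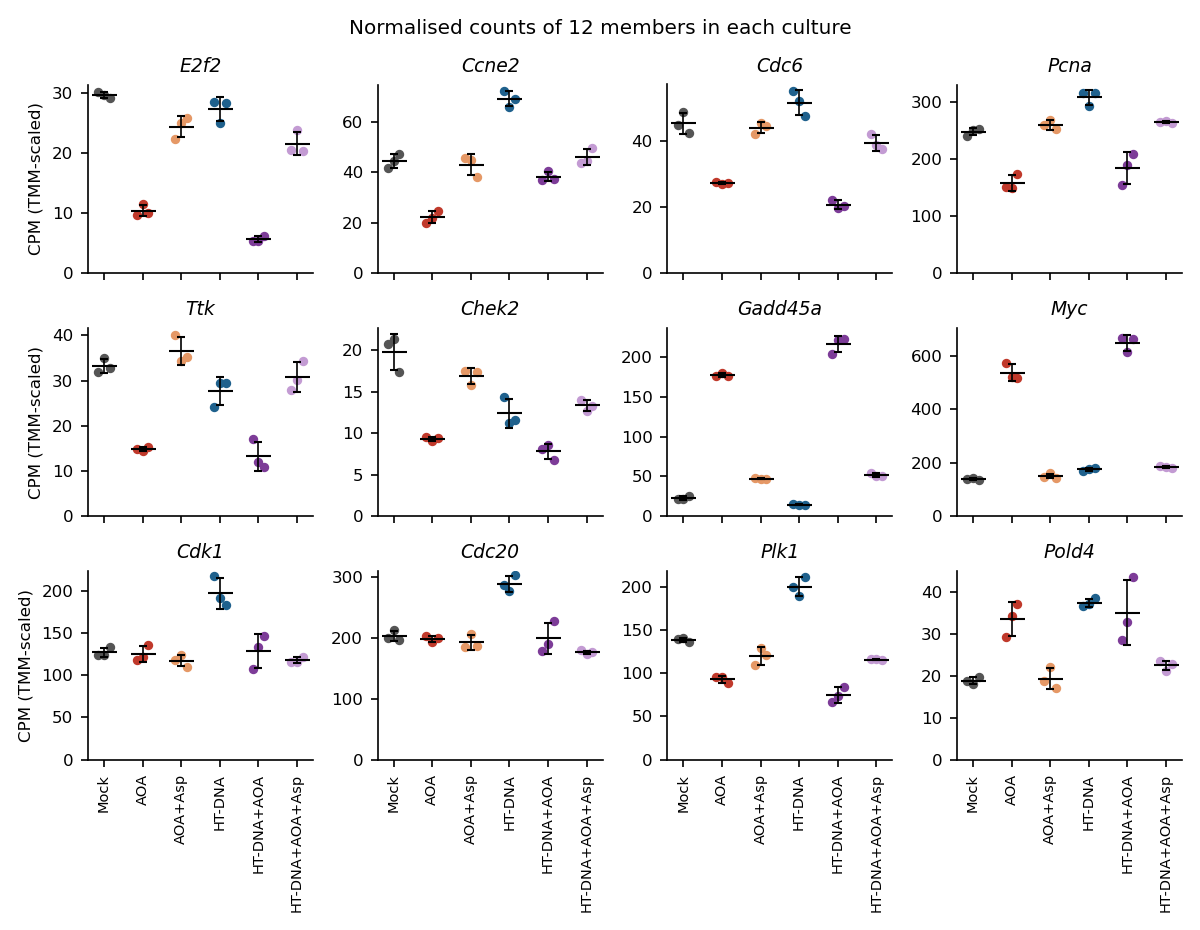
Level in CPM (TMM-scaled, linear axis from 0) of 12 members in each of the 18 cultures; points are cultures, bars the mean and SD of 3. E2f2 is low in both groups with AOA and no aspartate (9.68, 11.5 and 10.1 and 5.38, 5.29 and 6.2 CPM), Gadd45a and Myc are high there, and Cdk1, Cdc20 and Plk1 are highest with HT-DNA alone.

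With HT-DNA present, AOA again lowered the lists. Against HT-DNA alone, 16 replication genes were lower and 5 higher, and 60 other cell cycle genes were lower and 14 higher, with 22.7% of all genes lower and 22.8% higher. This comparison shares no culture with AOA against Mock. Of the replication genes lower in the first, 10 were lower in both, 76.9% of those lower with AOA alone and 62.5% of those lower with AOA and HT-DNA. Of the other cell cycle genes, 43 were lower in both (67.2% and 71.7%), beside 60.9% and 62.5% over all genes. By role, 9 of 15 mitotic genes, 8 of 11 spindle checkpoint genes, 5 of 8 G1 and S phase genes and 3 of 4 CDK inhibitors were lower, while the cohesin genes, of which 12 were lower with AOA alone, held 5 falls and 1 rise.

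The larger falls included those of regulators of S phase and mitosis and of a CDK inhibitor. E2f2 went from 28.6, 25 and 28.3 CPM with HT-DNA to 5.38, 5.29 and 6.2 CPM with HT-DNA and AOA, 4.87-fold lower (log2 fold change -2.28 ± 0.10, adjusted p = 4.77e-12). Cdc6 went from 55, 52.2 and 47.7 CPM to 22.2, 19.7 and 20.3 CPM (log2 fold change -1.32 ± 0.08, adjusted p = 2.22e-10). Plk1 went from 200, 189 and 211 CPM to 66.4, 74 and 84 CPM (log2 fold change -1.42 ± 0.08, adjusted p = 9.54e-11), with no overlap of the groups. The inhibitor Cdkn2d went from 45, 36.3 and 44.3 CPM to 11.7, 16.6 and 17.4 CPM (log2 fold change -1.46 ± 0.13, adjusted p = 3.32e-08). Rpa2 fell most of the replication genes, from 81.3, 74.3 and 82.1 CPM to 35.1, 36.7 and 46.8 CPM (log2 fold change -1.01 ± 0.08, adjusted p = 1.47e-08), followed by Mcm5 (-0.83 ± 0.09), Pcna (-0.74 ± 0.09) and Mcm2 (-0.68 ± 0.09). Gadd45a rose to 204, 221 and 222 CPM, 14.7-fold over HT-DNA (log2 fold change 3.88 ± 0.08, adjusted p = 3.67e-17), and Myc to 668, 615 and 663 CPM, 3.7-fold (log2 fold change 1.89 ± 0.07, adjusted p = 1.51e-13).

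Whether the AOA effect differs with HT-DNA was tested as an interaction. It was past the threshold for 7 replication genes with a lower and 3 with a higher AOA effect under HT-DNA, and for 21 and 11 other cell cycle genes (all genes 8.26% lower and 7.23% higher). Cdk1 and Cdc20, which HT-DNA raised and AOA alone did not move past the threshold, were among the lower ones. Cdk1 stood at 107, 133 and 147 CPM in HT-DNA+AOA, against 218, 191 and 183 CPM with HT-DNA alone (interaction -0.59 ± 0.14, adjusted p = 0.00879, adjusted p = 0.0517 in a fit of these 12 libraries alone). Cdc20 stood at 178, 190 and 228 CPM against 286, 277 and 303 CPM (interaction -0.51 ± 0.11, adjusted p = 0.00595). The interaction was also past the threshold for E2f2 (-0.78 ± 0.14, adjusted p = 0.00188), Plk1 (-0.84 ± 0.11, adjusted p = 0.000111), Cdc25a (-0.66 ± 0.11, adjusted p = 0.00096), Cdc6 (-0.58 ± 0.11, adjusted p = 0.00275), Mcm5 (-0.54 ± 0.12, adjusted p = 0.00862) and Pold4 (-0.93 ± 0.18, adjusted p = 0.00272). It was higher for Gadd45a (0.94 ± 0.10, adjusted p = 1.7e-05) and for Rb1 (0.83 ± 0.17, adjusted p = 0.00408), which HT-DNA lowered.

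These counts of interactions depend on single libraries. Without HT-DNA+AOA replicate 3, 18 replication and 67 other cell cycle genes were called, and without AOA replicate 2, 3 and 21. The replication count was also 5 without Mock replicate 1, 5 without HT-DNA replicate 1 and 4 without HT-DNA replicate 3. With library totals, the split was 5 higher and 6 lower for the replication genes and 17 and 18 for the others.

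Adding aspartate to HT-DNA and AOA raised 13 replication genes and lowered 5, and raised 75 other cell cycle genes and lowered 20 (all genes 23.7% higher and 23.9% lower). The comparison shares no culture with that of AOA+Asp with AOA, and 61 other cell cycle genes were higher in both, 89.7% of those higher without HT-DNA and 81.3% of those higher with it (all genes 75.5% and 74.5%). E2f2 rose to 20.6, 23.8 and 20.4 CPM (log2 fold change 1.94 ± 0.10, adjusted p = 7.94e-11). Ttk rose from 17, 12 and 10.9 CPM to 28, 30.1 and 34.4 CPM (log2 fold change 1.21 ± 0.13, adjusted p = 6.11e-07). For both genes, every HT-DNA+AOA+Asp culture lay above every HT-DNA+AOA culture. Esco2, the acetyltransferase that locks cohesin in S phase, rose from 17.2, 17.2 and 11.6 CPM to 31.8, 31.7 and 34.4 CPM (log2 fold change 1.08 ± 0.14, adjusted p = 3.69e-06), and Cdkn1b from 15.2, 15.5 and 10.6 CPM to 27, 27.9 and 26.5 CPM (log2 fold change 0.97 ± 0.12, adjusted p = 1.84e-06). Gadd45a fell to 54.2, 50.1 and 50 CPM (log2 fold change -2.07 ± 0.07, adjusted p = 1.48e-13) and Myc to 189, 186 and 179 CPM (log2 fold change -1.81 ± 0.07, adjusted p = 2.25e-13). Cdk1 did not pass the threshold, at 116, 116 and 122 CPM, and Cdc20 did not either, at 179, 174 and 176 CPM.

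The cultures with HT-DNA, AOA and aspartate did not look like those with HT-DNA alone. Against HT-DNA, 17 replication genes were lower and 5 higher, and 46 other cell cycle genes were lower and 43 higher (all genes 23.5% and 23.2%). With library totals the replication split was 14 lower and 9 higher, and in the fit corrected for GC content and length the split of the other genes was 48 lower and 28 higher. Lower were Ccnd3 (-1.03 ± 0.11), Ccne1 (-0.77 ± 0.10), Ccnd1 (-0.76 ± 0.07), Plk1 (-0.79 ± 0.08), Cdk1 (-0.74 ± 0.10), Cdc20 (-0.71 ± 0.08) and Pold4 (-0.74 ± 0.13). Higher were Gadd45a (1.81 ± 0.08), Atrx (0.94 ± 0.16), Cdc7 (0.91 ± 0.16) and Pola1 (0.77 ± 0.14).

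The HT-DNA response was measured again within the cultures with AOA and within those with AOA and aspartate, as comparisons added after the values were seen. In AOA-treated cultures, HT-DNA raised 2 replication genes and lowered 0, and raised 10 other cell cycle genes and lowered 23 (all genes 6.46% and 6.98%). The 2 replication genes were Rnaseh1 (0.40 ± 0.09, adjusted p = 0.00756) and Fen1 (0.31 ± 0.08, adjusted p = 0.00896). In a fit of these 6 libraries alone, neither passed (adjusted p = 0.123 and 0.199). Ccne2, from 20, 22 and 24.9 CPM to 37.1, 40.4 and 37.5 CPM (log2 fold change 0.78 ± 0.09, adjusted p = 8.72e-06), rose. Gadd45g, from 11.2, 7.99 and 9.42 CPM to 17.7, 20.2 and 21.7 CPM (log2 fold change 1.06 ± 0.11, adjusted p = 1.1e-06), rose as well, whereas E2f2 fell (-0.90 ± 0.11). These counts moved with single libraries: they were 6 and 63 without HT-DNA+AOA replicate 1, 7 and 35 without HT-DNA+AOA replicate 3, and the other cell cycle count was 21 without HT-DNA+AOA replicate 2, 20 without AOA replicate 1 and 20 without AOA replicate 2. With GC content and length corrected, 3 replication genes were higher and 2 lower.

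With AOA and aspartate, HT-DNA raised 0 and lowered 0 replication genes (1 of 33 at an unadjusted p under 0.05, and 0 higher and 0 lower by DESeq2), and raised 2 and lowered 5 other cell cycle genes (all genes 1.93% and 1.52%). The 2 that rose were Gadd45g, from 6.3, 6.36 and 5.86 CPM to 8.75, 9.72 and 9.28 CPM (log2 fold change 0.58 ± 0.12, adjusted p = 0.00572), and Myc (0.29 ± 0.07). The 5 that fell were Tfdp2 (-0.65 ± 0.09), Rb1 (-0.49 ± 0.11), Rbl2 (-0.46 ± 0.11), Ndc80, a kinetochore gene (-0.46 ± 0.10), and Cdca5, a cohesin regulator (-0.39 ± 0.08). The calls of Myc, Rb1, Rbl2 and Ndc80 were each lost without AOA+Asp replicate 1 or HT-DNA+AOA+Asp replicate 1, among others (adjusted p = 0.0647 to 0.111, 0.0651 to 0.0992, 0.0719 to 0.117 and 0.0643 to 0.0861), and that of Myc also with GC content and length corrected (adjusted p = 0.0661). The range of log2 fold changes over all 33 replication genes was -0.13 to 0.22, against -0.67 to 0.99 without AOA and aspartate. Over the 138 others it was -0.65 to 0.58 against -1.08 to 0.85. The other cell cycle count was 3 without AOA+Asp replicate 1 or HT-DNA+AOA+Asp replicate 1 and 4 without AOA+Asp replicate 3 or HT-DNA+AOA+Asp replicate 2, 29 with GC content and length corrected and 32 in a fit of these 6 libraries alone.

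**Figure D5:**
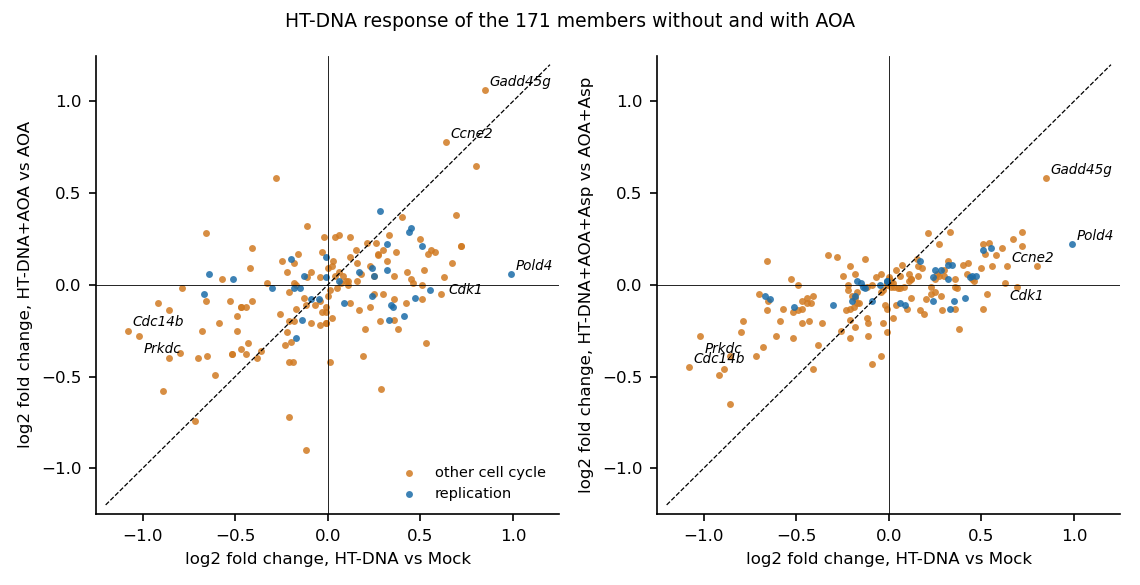
Log2 fold change of the 171 members with HT-DNA in AOA-treated cultures (left, vertical axis) and in cultures with AOA and aspartate (right, vertical axis) against that without AOA (horizontal axes); the dashed line marks equal change. On the right, Pold4 (0.99 without AOA) lies at 0.22 on the vertical axis, Cdk1 (0.63 without AOA) at 0.01 and Gadd45g at 0.58.

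Tested directly, the HT-DNA response with AOA and aspartate differed from that without both for 0 replication genes in the higher and 3 in the lower direction, and for 3 and 11 other cell cycle genes (all genes 3.24% and 3.01%). The 3 replication genes were Pold4 (-0.77 ± 0.18, adjusted p = 0.0249), Fen1 (-0.40 ± 0.11, adjusted p = 0.0346) and Rpa2 (-0.46 ± 0.12, adjusted p = 0.0315). It was also lower for Cdk1 (-0.63 ± 0.14, adjusted p = 0.0179), Cdc20 (-0.64 ± 0.11, adjusted p = 0.00492) and Plk1 (-0.58 ± 0.11, adjusted p = 0.00859), and higher for Gadd45a (0.78 ± 0.10, adjusted p = 0.000586). The call of Cdk1 was lost without Mock replicate 1 or AOA+Asp replicate 2 or HT-DNA replicate 1 or HT-DNA+AOA+Asp replicate 2 (adjusted p = 0.0533 to 0.0659). Leaving out 1 library at a time gave 0 to 6 called replication genes and 3 to 18 other cell cycle genes. None of the replication genes was called without Mock replicate 1 or 2, AOA+Asp replicate 2, HT-DNA replicate 1 or 3, or any 1 of the HT-DNA+AOA+Asp replicates, 1 was without Mock replicate 3, and 6 were without HT-DNA replicate 2. The other cell cycle count was 3 without Mock replicate 1, HT-DNA replicate 1, AOA+Asp replicate 2 or HT-DNA+AOA+Asp replicate 2, 4 without HT-DNA replicate 3 or HT-DNA+AOA+Asp replicate 1, 5 without Mock replicate 2, 6 without HT-DNA+AOA+Asp replicate 3 and 7 without Mock replicate 3. DESeq2 called 11 replication and 36 other cell cycle genes, and a fit of these 12 libraries alone 16 and 66. The split was 1 higher and 6 lower replication genes with GC content and length corrected, and 5 higher and 7 lower other genes with library totals.

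Genes of the same processes that KEGG does not list in these pathways were also called lower more often than higher with AOA. Of 28 S phase genes, 15 were lower and 3 higher with AOA (median -0.29), and of 25 G2 and M phase genes, 15 were lower and 2 higher (median -0.43), against 23.3% lower and 22.4% higher over all genes. Mki67, a proliferation marker, fell by 0.79 ± 0.14, Hmmr, a spindle gene, by 0.96 ± 0.11 and Clspn, which helps to activate CHEK1, by 0.74 ± 0.13 on the log2 scale, and the nucleotide enzyme gene Dut rose by 0.65 ± 0.10. With aspartate added to AOA, 13 S phase and 16 G2 and M phase genes were higher and 2 and 2 lower (all genes 23.5% higher and 22.8% lower). Against Mock, the AOA+Asp cultures had 3 S phase and 1 G2 and M phase genes lower and 0 and 0 higher (all genes 3.95% lower and 2.52% higher). HT-DNA raised 5 and lowered 7 S phase genes, and raised 5 and lowered 12 G2 and M phase genes (all genes 24.2% higher and 24% lower). With HT-DNA and AOA, 11 S phase and 14 G2 and M phase genes were lower than with HT-DNA, and 4 and 0 higher (all genes 22.7% lower and 22.8% higher).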

How the data were processed

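RNA of 18 samples of L929 cells (6 groups of 3) was extracted with TRIzol and sequenced. The authors deposited 1 table of estimated counts per gene, of which 32.9% of the values above 0 are not whole, with pooled columns of group means that were not used. The aligner, counter and genome build are not given in the sources used here. The values were rounded to whole numbers, although whole counts had been assumed when the test was chosen, and were analysed with R 4.3.3, edgeR 4.0.16, limma 3.58.1 and DESeq2 1.42.0.

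Genes were kept by filterByExpr (minimum count 10, minimum total 15), which left 14263 of 57180, all 18 libraries were fitted in 1 model with TMM factors, and each comparison was tested with the robust quasi-likelihood test with Benjamini-Hochberg adjustment. The standard error is the log2 fold change divided by the square root of F. The interaction is the difference between 2 log2 fold changes. Counting error is small at 17901605 to 24057343 counts per library, and the spread between samples, estimated over all 18 libraries together, sets the precision. The test was run on simulated data first.

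The members and lists were chosen with earlier results of these data known. Named genes were a list of core cell cycle genes, the 3 largest rises and falls in each list and comparison past the threshold with at least 1 CPM and groups that do not overlap, and 10 genes chosen after their values were seen (Pold3, E2f3, E2f4, Cdt1, Knl1, Esco1, Smad3, Nipbl, Ndc80 and Cdca5), as were the genes named from the S phase and G2 and M phase lists. The comparisons of HT-DNA+AOA with AOA, of HT-DNA+AOA+Asp with AOA+Asp and their difference from HT-DNA alone were also added then. Alternatives were RLE size factors, library totals, other filters on low counts, a replicate block, only the groups compared, a loess correction for GC content and length, DESeq2, and leaving out each library. Transcript lengths and GC content were taken from GENCODE vM21, and shared sequence as the percent of 31-base words found in transcripts of other genes.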

Additional observations from a re-analysis of the deposited data

Results flagged for a closer look

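The effect of AOA differed between cultures with and without HT-DNA for 7 replication genes in the lower and 3 in the higher direction, and for 21 and 11 other cell cycle genes, by edgeR's test of the interaction itself. As log2 differences of the AOA effect, with HT-DNA minus without, the named members with a lower value were Pold4 (-0.93), Plk1 (-0.84), E2f2 (-0.78), Cdc25a (-0.66), Cdkn2d (-0.62), Cdt1 (-0.59), Cdk1 (-0.59), Cdc6 (-0.58), Rnaseh2a (-0.58), Pold2 (-0.57), Ccnd1 (-0.55), Mcm5 (-0.54), Rpa2 (-0.52), Cdc20 (-0.51), Ccne1 (-0.51), Tgfb3 (-0.51), Zbtb17 (-0.51), Pold1 (-0.46), Mcm2 (-0.45), Espl1 (-0.44), E2f4 (-0.44), Trp53 (-0.36) and Ccnb1 (-0.31). Those with a higher value were Gadd45a (0.94), Atm (0.85), Rb1 (0.83), Cdc14b (0.83), Atrx (0.76), Prkdc (0.75), Nipbl (0.72), Pola1 (0.71), Pole (0.62), Ndc80 (0.61), Rbl1 (0.57), Rfc1 (0.54) and Tfdp2 (0.45).

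The effect of HT-DNA differed between cultures with AOA and aspartate and cultures with neither for 3 replication genes in the lower and 0 in the higher direction, and for 11 and 3 other cell cycle genes, by the same test, in a comparison added after the values were seen. As log2 differences of the HT-DNA effect, the named members with a lower value were Pold4 (-0.77), Gadd45b (-0.70), Cdc20 (-0.64), Cdk1 (-0.63), Cdkn2d (-0.62), Plk1 (-0.58), Ccne2 (-0.54), Rpa2 (-0.46), Ccnd1 (-0.43), Cdc25a (-0.41), Fen1 (-0.40) and Ccnb1 (-0.31), and those with a higher value were Gadd45a (0.78), Prkdc (0.75) and Ccnd2 (0.48).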

How the results depend on the processing

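Of the 26 settings tried, those that left out a library were run only for comparisons that use its group, and a setting counts here only where it was run. Counts of called members stayed within 1.5 times their value for AOA against Mock, AOA+Asp against AOA and HT-DNA against Mock in every such setting, and those of HT-DNA+AOA+Asp against HT-DNA did so too. In fits of only the libraries compared, the replication count became 12 for HT-DNA+AOA against HT-DNA, 10 for HT-DNA+AOA+Asp against HT-DNA+AOA (other cell cycle genes 60), 4 for AOA+Asp against Mock (other 34) and 3 for the AOA interaction (other 17). AOA+Asp against Mock also gave 1 replication gene with library totals, 2 replication and 19 other genes with GC content and length corrected, and 16 other genes by DESeq2, and the interaction gave 52 other genes with GC content and length corrected. Leaving out 1 library at a time gave 3 to 18 replication and 21 to 67 other genes for the interaction, and 3 to 7 other genes for AOA+Asp against Mock. Of 468 pairs of a named gene and a comparison that called it, 299 kept direction and call in every setting, 169 lost the call or changed sign in at least 1, and 11 of these changed sign, all in the fit corrected for GC content and length: in AOA+Asp vs AOA Mad2l1 (-0.03), in HT-DNA vs Mock Ccnd2 (0.05), Cdkn2d (-0.00), in HT-DNA+AOA+Asp vs HT-DNA+AOA Mad2l1 (-0.21), in HT-DNA+AOA+Asp vs HT-DNA Atr (-0.04), Ccnd2 (-0.02), Cdk6 (-0.05), Cdkn2c (0.04), Cdt1 (0.02), Mcm6 (-0.04), Prim2 (-0.04). The cause of these changes was not tested.

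Replicate numbers are shared by all groups but did not pair the samples, since the correlations of same-numbered samples were -0.10 to 0.13. With a replicate block, 17 replication and 75 other genes were called for AOA against Mock, 21 and 85 for HT-DNA against Mock and 11 and 32 for the AOA interaction, and the block moved no planned count by over 1.5 times. The comparisons added later were less stable: DESeq2 called 14 other genes for HT-DNA+AOA+Asp against AOA+Asp, fits of only the libraries compared called 0 replication and 5 other genes for HT-DNA+AOA against AOA and 2 replication genes for HT-DNA+AOA+Asp against AOA+Asp, and the GC and length correction called 54 other genes for the first and 2 replication genes for the second. For the response to HT-DNA with AOA and aspartate against that without both, the counts were 9 and 30 with no filter, 7 and 28 with GC content and length corrected, and 5 replication genes with the block.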

Other observations

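Of 9 subunits of protein phosphatase 2A, which counters CDK phosphorylation, 1 was higher and 3 lower with AOA, 3 were higher and 2 lower with HT-DNA, and the log2 fold changes with AOA ran from -0.74 to 0.13. Of 6 genes of the adaptor family that holds phosphorylated CDC25 proteins, 2 were higher and 1 lower with AOA, led by Ywhag, which measured 396, 403 and 373 CPM in Mock and 691, 651 and 612 CPM in AOA and 357, 383 and 373 CPM in AOA+Asp (log2 fold change -0.81 ± 0.06, adjusted p = 1.06e-08 against AOA). With HT-DNA, 1 of the 6 was higher and 0 lower. Over all genes tested, 22.4% were higher and 23.3% lower with AOA, and 24.2% and 24% with HT-DNA. Of 12 genes of growth signals and transcription cofactors, 5 were lower and 4 higher with HT-DNA, and Zbtb17, a factor that binds MYC, rose from 30.3, 33.5 and 31.3 CPM to 52.1, 47.4 and 57.6 CPM (log2 fold change 0.72 ± 0.11, adjusted p = 8.69e-05).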
